A study of Arabidopsis thaliana with 204 samples.

Results

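The samples described here are abaxial petiole after 100 min of FRtip and its white light control, 4 libraries of each, which are 8 of the 204 libraries of the series. They were chosen by their labels (abaxial petiole, 100 minutes, WL or FRtip) and not by any measured value. Of 33602 loci in the table, the 15681 that averaged 10 or more normalized reads over these 8 libraries were tested. The study followed how far-red light (FR) given to the leaf tip of Arabidopsis changes transcripts in the tip itself and, remotely, in the abaxial (lower) and adaxial (upper) side of the petiole, between 40 and 300 min of treatment. All plants were Col-0 wild type, aged 28 days and kept in 9 h of light and 15 h of dark. In WL the whole plant stayed at a red to far-red ratio (R/FR) of 2.0. In FRtip only the leaf tip received FR on top of the white light, for an R/FR of 0.05 there, while the petiole received none. Each library pooled material of 13 leaves, so the spread between libraries is a spread between pools and not between single plants.

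When phytochromes in a leaf tip sense the FR reflected by neighbors, PHYTOCHROME INTERACTING FACTORS (PIFs) switch on auxin synthesis there, and auxin moves down through the blade into the petiole. Auxin lets TIR1/AFB receptors degrade Aux/IAA repressors, which frees AUXIN RESPONSE FACTORs (ARFs) to transcribe early targets, the Aux/IAA and *SAUR* (*SMALL AUXIN UP RNA*) genes among them. SAUR proteins of the SAUR19 group inhibit PP2C.D phosphatases and so keep plasma membrane proton pumps active, which loosens the wall for cell expansion, and more expansion on the abaxial side lifts the leaf.

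The 8 libraries held between 1871274 and 3195925 reads counted in genes, and between 20098 and 20711 genes had at least 1 read. No pair of libraries within a group was a repeat deposit, since pairs differed by 1.81 to 3.83 times counting noise. Abaxial identity genes fitted the tissue label: 8 of 9 had a higher mean in the abaxial than in the adaxial WL petiole at 100 min. *KAN1*, a KANADI factor that specifies abaxial fate, averaged 80.1 normalized reads abaxially and 24.9 adaxially, and the YABBY gene *YAB5* averaged 82.7 and 16.4. *AS2*, an adaxial determinant that lay under the filter, averaged 6.95 abaxially and 24.9 adaxially, while of the 8 adaxial markers tested 4 were lower abaxially.

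At 100 min of FRtip a few transcripts, most of them of known auxin-responsive genes, were higher in the abaxial petiole, and how many passed a test depended on the test. *SAUR22*, the HD-ZIP II transcription factor gene *HAT2*, which auxin induces, and *AT5G43190*, a gene annotated as a galactose oxidase/kelch repeat protein, were 2.46, 2.98 and 2.60 times as high as in WL, on the log2(normalized count + 1) scale. No gene passed the comparison of 4 against 4 libraries by limma with Benjamini-Hochberg adjustment (0 of 15681, lowest adjusted p = 0.224), although 956 genes, 6.1% of those tested, had an unadjusted p below 0.05 (532 higher and 424 lower in FRtip). The edgeR quasi-likelihood test on the reads called 3 genes, 0.0191% of those tested, and limma with a mean-variance trend called the same 3, namely *SAUR22*, *HAT2* and *AT5G43190*. DESeq2 called 34 genes, all higher.

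*SAUR22* lies at chr5:5974341-5975087 on the minus strand (RefSeq annotation of TAIR10.1) and had 49.7, 46.7, 36.5 and 28.2 normalized reads in the 4 WL libraries and 114, 88.9, 93.2 and 98.6 in the 4 FRtip libraries. The groups did not overlap, and the lowest FRtip library stood well above the highest WL library. The means were 40.3 ± 9.83 and 98.7 ± 11 (SD, n = 4 each), a log2 fold change (log2FC, on the log2(normalized count + 1) scale throughout) of 1.3 ± 0.18 (SE), with an edgeR adjusted p of 0.00953 and a limma adjusted p of 0.224. *HAT2* (chr5:19216271-19218007 on the minus strand) had 47.5, 60.6, 41 and 47.9 normalized reads in WL and 245, 121, 131 and 121 in FRtip. FRtip replicate 1 was far above the other FRtip libraries, which were close to each other and all above every WL library. The log2FC of *HAT2* was 1.57 ± 0.23 (edgeR adjusted p = 0.0257, limma adjusted p = 0.224), and it was 1.33 without FRtip replicate 1. *AT5G43190* (chr5:17340071-17341814 on the minus strand) had 202, 223, 212 and 174 normalized reads in WL and 727, 457, 582 and 396 in FRtip. Its WL libraries were tightly grouped and its lowest FRtip library was well above them, for a log2FC of 1.38 ± 0.19 (edgeR adjusted p = 0.00953, limma adjusted p = 0.224).

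**Figure D1:**
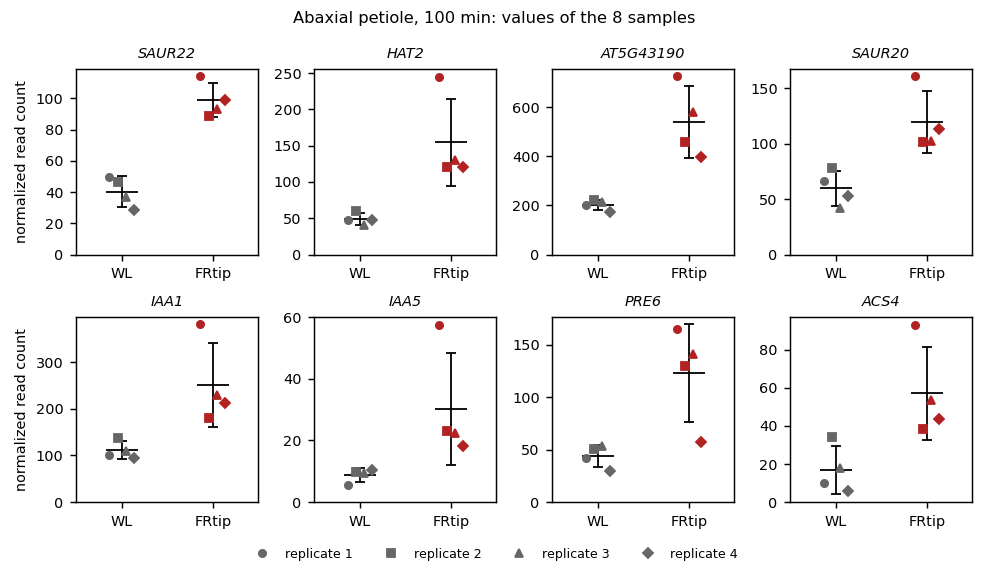
Normalized read count (y axis) of 8 genes in each of the 4 WL and 4 FRtip libraries of the abaxial petiole at 100 min; symbols mark the replicate number, and bars the mean ± SD (n = 4). In the plotted genes all FRtip values lie above all WL values, and FRtip replicate 1 is the highest FRtip library in most of them, as for HAT2 at 245 against 121 to 131 in the other 3.

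A wider set appeared when the spread of each gene was estimated from all abaxial libraries of 60 to 300 min in 1 limma fit and then applied to the 100 min difference. Under that fit 28 genes were called higher (0.179% of those tested) and 1 lower (0.00638%) at an adjusted p below 0.05. Of the 28, 12 were *SAUR* genes, 3 were *Aux/IAA* genes (*IAA1*, *IAA4* and *IAA5*), and the others with a known role included *HAT2*, *PRE6*, a bHLH growth regulator that brassinosteroids and auxin induce, and *ACS4*, an auxin-induced gene for the committed step of ethylene synthesis. In 25 of the 28 the 4 FRtip values all lay above the 4 WL values, where 1.77% of all tested genes were separated in that direction and 1.79% in the other; the 28 were chosen on the difference between these libraries, so this is a description. The set depended on single libraries: without FRtip replicate 1 the fit called 3 genes, again *SAUR22*, *HAT2* and *AT5G43190*, without WL replicate 4 it called 11, without FRtip replicate 3 it called 12, without WL replicate 3 it called 16, and without FRtip replicate 2 it called 63. With the spread taken from 60 to 120 min only, it called the same 3. All 29 genes kept their direction under each of these changes. They were chosen on these same libraries, and the time points used alter only the spread, so this is a description as well. FRtip replicate 1 was the highest FRtip library in 25 of the 28 genes, FRtip replicate 2 the lowest in 15 and FRtip replicate 4 in 13, while WL replicate 2 was the highest WL library in 17.

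The *SAUR* genes made up the largest group. The table held 79 of them, 33 reached the filter, and 26 of those 33 were higher and 7 lower in FRtip, with a median log2FC of 0.58 against -0.01 over all tested genes. The thresholds that the study used (unadjusted p below 0.01 and a log2FC beyond 0.3 in size) were applied to the limma p. This cutoff was passed by 13 higher and 1 lower *SAUR*, where 207 of all tested genes passed it (1.32%), 146 upward (0.931%) and 61 downward (0.389%). Below, the study's cutoff means these thresholds on the limma p, so the genes past it are not the study's own list. Without FRtip replicate 1 the median over *SAUR* genes was 0.43 and 24 of 33 were higher. In the 3 runs of *SAUR* genes that the study names, all 6 genes of *SAUR19* to *SAUR24* on chromosome 5 passed that cutoff with log2FC between 0.96 and 1.3, all 6 tested genes of *SAUR62* to *SAUR68* on chromosome 1 were higher by 0.73 to 0.97, and the 4 tested genes of *SAUR25* to *SAUR29* were higher by 0.58 to 1.19.

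In the chromosome 5 cluster *SAUR20* had 66.3, 78.0, 41.6 and 52.6 normalized reads in WL and 161, 101, 103 and 113 in FRtip (log2FC 1.00 ± 0.21). *SAUR21* had 53, 53.6, 41.6 and 29.1 in WL and 134, 93.6, 90.7 and 77.3 in FRtip (log2FC 1.15 ± 0.22). Neither gene's groups overlapped. *SAUR23* was the exception in the cluster: its WL replicate 2, at 71.7, lay above its FRtip replicate 4, at 70.6. The coding sequences of these 6 genes are 87.7 to 95.2% identical over 15 pairs, with a median of 91.2%, and how reads that match more than 1 of them were counted is not given in the sources used here, so the level of each is uncertain while the cluster as a whole was higher. *DRT101*, a gene annotated as a phosphoglucosamine mutase-like protein that sits between *SAUR23* and *SAUR24*, was also higher (log2FC 0.90 ± 0.25), with overlapping groups. *SAUR15* on chromosome 4 had 56.3, 47.4, 42.3 and 39.5 in WL and 139, 73.6, 88.9 and 69.6 in FRtip (log2FC 0.94 ± 0.21), and again no FRtip library was as low as a WL library. Its neighbor *SAUR14* had a smaller log2FC of 0.39 ± 0.14. One member went the other way: *SAUR78* had 65.2, 96.1, 101 and 77.1 in WL and 56.7, 49.8, 55.3 and 42.5 in FRtip (log2FC -0.71 ± 0.16, limma adjusted p = 0.582), without overlap. At 120 min *SAUR78* had a log2FC of 0.17 ± 0.21.

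The 250 bases upstream of the annotated start were read from the RefSeq TAIR10.1 genome for the called genes, because most of them are known auxin targets and ARFs bind DNA at TGTC-type elements. The motifs searched on both strands were TGTCTC, the classical auxin response element, TGTCGG, a form that ARFs bind strongly, and CACGTG, the G-box that PIFs bind. TGTCTC was present in 10 of the 28 genes called higher (35.7%) and in 10.9% of 26711 promoters of the same length. Among the 10, the windows of *DRT101* and *AT5G25440* overlap a neighboring gene. *SAUR20*, *SAUR22*, *SAUR62*, *SAUR66* and *SAUR67*, also among the 10, come from *SAUR* clusters, so the 28 windows are not independent. TGTCGG was present in 3 of the 28 (10.7%, against 4.16% of all promoters), and CACGTG in 0 of 28 (against 6.58%). Among the genes past the study's cutoff with a promoter, TGTCTC was in 20.1% of 144 higher and 11.9% of 59 lower genes, TGTCGG in 7.64% of the higher and 13.6% of the lower, and CACGTG in 7.64% and 10.2%. Within the *SAUR* list as a whole TGTCTC was in 8.86% of promoters, and within the *Aux/IAA* list in 31%. A match says only that the letters are there.

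The windows of 5 genes are shown with the matches in capitals (GAGACA and CCGACA are TGTCTC and TGTCGG read on the other strand). All 5 hold TGTCTC, and they come from a *SAUR* cluster on chromosome 5, one on chromosome 1 and *Aux/IAA* genes. They do not stand for their clusters: of the promoters of *SAUR19* to *SAUR24*, 2 of 6 held TGTCTC (33.3%). Each window runs 5′ to 3′ along the gene's strand and ends at the base before the start. They are *SAUR22* (chr5:5975088-5975337, minus strand), *SAUR20* (chr5:5966786-5967035, minus strand), *SAUR66* (chr1:10320761-10321010, plus strand), *IAA1* (chr4:8360746-8360995, plus strand) and *IAA5* (chr1:5366498-5366747, minus strand).
SAUR22: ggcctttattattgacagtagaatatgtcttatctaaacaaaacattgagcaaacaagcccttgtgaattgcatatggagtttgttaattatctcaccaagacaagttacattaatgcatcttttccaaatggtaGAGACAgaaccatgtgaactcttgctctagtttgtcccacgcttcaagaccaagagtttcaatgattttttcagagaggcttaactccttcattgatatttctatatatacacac
SAUR20: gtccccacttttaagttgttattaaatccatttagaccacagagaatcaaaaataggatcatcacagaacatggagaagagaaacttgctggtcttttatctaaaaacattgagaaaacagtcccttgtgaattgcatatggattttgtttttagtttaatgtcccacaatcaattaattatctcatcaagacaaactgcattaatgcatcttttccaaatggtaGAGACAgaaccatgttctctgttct
SAUR66: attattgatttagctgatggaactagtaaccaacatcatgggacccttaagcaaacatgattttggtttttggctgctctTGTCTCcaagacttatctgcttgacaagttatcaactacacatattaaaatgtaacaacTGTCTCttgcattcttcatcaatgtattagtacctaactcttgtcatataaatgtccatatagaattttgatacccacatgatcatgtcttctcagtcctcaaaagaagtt
IAA1: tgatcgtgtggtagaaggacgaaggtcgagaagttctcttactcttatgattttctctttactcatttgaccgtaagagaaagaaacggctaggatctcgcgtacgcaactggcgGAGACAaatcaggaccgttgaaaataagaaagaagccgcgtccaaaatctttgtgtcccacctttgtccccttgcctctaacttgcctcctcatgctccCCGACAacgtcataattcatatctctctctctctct
IAA5: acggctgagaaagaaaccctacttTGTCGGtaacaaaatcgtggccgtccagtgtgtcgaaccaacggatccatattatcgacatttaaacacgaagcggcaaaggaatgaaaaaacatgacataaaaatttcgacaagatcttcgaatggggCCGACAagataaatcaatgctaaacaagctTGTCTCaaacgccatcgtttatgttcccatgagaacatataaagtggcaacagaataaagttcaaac
The first base of the TGTCTC match lay 115 bases before the start in *SAUR22* and 25 bases before it in *SAUR20*. In *SAUR66* the motif occurred at 170 and at 111 bases, in *IAA1* at 135 bases and in *IAA5* at 67 bases. *IAA1* also held TGTCGG at 36 bases, and *IAA5* held it at 226 and at 97 bases. The windows of *HAT2* and *AT5G43190* held none of the 3 motifs.

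*Aux/IAA* genes encode the repressors that auxin removes and that auxin also induces in a feedback. Of 29, 22 were tested, 15 were higher and 7 lower, and the median log2FC was 0.12. The difference was carried by a few: 5 passed the study's cutoff (*IAA1*, *IAA2*, *IAA4*, *IAA5* and *IAA6*), and with *IAA3* these were the 6 whose groups did not overlap. Over all tested genes, 0.931% passed the cutoff upward and 1.77% had all FRtip values above all WL values. *IAA1* had 102, 138, 110.2 and 94.0 normalized reads in WL and 382, 181, 229 and 212 in FRtip (log2FC 1.12 ± 0.22). *IAA5* had 5.52, 9.75, 9.61 and 10.3 in WL and 57.5, 23, 22.4 and 18.4 in FRtip (log2FC 1.56 ± 0.33). In both genes FRtip replicate 1 was the highest by a wide margin, and the other 3 FRtip libraries were still above all WL libraries. *IAA6* had 106, 89.9, 108 and 106 in WL and 298, 127, 247 and 218 in FRtip (log2FC 1.05 ± 0.23), and *IAA2* had 265, 259.8, 267 and 245 and 812, 314, 479 and 409 (log2FC 0.86 ± 0.24). *IAA3* was separated by a narrow gap, with 669, 643, 669 and 640.1 in WL and 929, 696, 851 and 828 in FRtip (log2FC 0.33 ± 0.12), and *IAA19*, with a log2FC of 0.67 ± 0.26, had overlapping groups, since its FRtip replicate 2 at 121 lay below its WL replicate 3 at 144. *IAA7*, *IAA8*, *IAA9*, *IAA16*, *IAA26* and *IAA27* had log2FC between -0.08 and 0.10. *GH3* genes, whose enzymes conjugate auxin to amino acids, had 3 of 8 members tested, with a median of 0.21.

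The tested genes of auxin transport and perception differed little. The 13 tested transport genes had a median log2FC of -0.02 and the 11 tested receptor and response factor genes 0.02, and none passed the study's cutoff. Of 14 auxin synthesis genes 13 lay under the filter. The tested one, *YUC11*, had 8.84, 15.3, 5.77 and 4.70 normalized reads in WL and 17.2, 21.5, 8.70 and 12.6 in FRtip, with overlapping groups (log2FC 0.78 ± 0.35, limma adjusted p = 0.817), and a log2FC of -1.04 ± 0.76 at 120 min. *YUC3*, which like *YUC11* encodes a flavin monooxygenase of auxin synthesis, had 1.1, 0.697, 0.641 and 0.940 normalized reads in WL and 4.31, 3.07, 4.35 and 0.966 in FRtip, and *YUC5* was at 0 in all 8 libraries. Other genes of interest to the study were also under the filter. *IAA29* had 0, 2.09, 0 and 0.940 in WL and 7.18, 4.60, 3.11 and 0.966 in FRtip, and *NCED5*, an abscisic acid synthesis gene, had 0, 2.09, 0.641 and 0 and 10.8, 2.30, 5.59 and 8.70. These are a few reads per library. In *IAA29* 3 of 4 FRtip libraries and in *NCED5* 4 of 4 lay above all WL libraries. Of all tested genes 1.77% had all 4 FRtip values above the WL values. The highest WL and the lowest FRtip library of *NCED5*, at 2.09 and 2.30, held the same number of reads before scaling, so scaling alone separates them.

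Of the brassinosteroid response genes, which include *PRE* genes that answer to auxin as well, 8 of 8 tested members had a positive log2FC, with a median of 0.56, 4 passed the study's cutoff and 0 passed limma after adjustment. Over all tested genes, 0.931% passed the cutoff upward and 1.77% had all FRtip values above all WL values. Without FRtip replicate 1 the median was 0.44 and 5 of 8 were positive. *PRE6* had 42, 50.9, 53.2 and 30.1 normalized reads in WL and 164, 129.6, 141 and 57.0 in FRtip (log2FC 1.39 ± 0.31). FRtip replicate 4 was low but still above the highest WL library. *PRE1*, of the same family, had 5.52, 7.66, 3.84 and 10.3 in WL and 19.4, 29.1, 16.8 and 13.5 in FRtip (log2FC 1.42 ± 0.28), and *BAS1*, which encodes a brassinosteroid-inactivating enzyme, had 4.42, 18.1, 16 and 15.0 and 29.4, 29.9, 25.5 and 36.7 (log2FC 1.26 ± 0.35). Neither of the last pair overlapped between groups, and *PRE5* (log2FC 0.81 ± 0.19) did not either. Genes of brassinosteroid synthesis and signalling had medians of 0.07 over 9 genes and 0.00 over 6 genes.

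Among 6 tested ethylene synthesis genes the median was 0.29 and *ACS4* alone passed the study's cutoff, which 0.931% of all tested genes passed upward. *ACS4* had 9.94, 34.1, 17.9 and 5.64 normalized reads in WL and 92.7, 38.3, 53.4 and 43.5 in FRtip (log2FC 1.88 ± 0.47, limma adjusted p = 0.633). The WL libraries were spread widely, and WL replicate 2 came close to FRtip replicate 2 without reaching it. *ACS8*, under the filter, had 0, 2.09, 0 and 0.940 in WL and 5.03, 3.83, 6.21 and 3.87 in FRtip. The 11 tested ethylene signalling genes had a median of 0.02.

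Gibberellin synthesis genes were higher in 5 of 5 tested, with a median of 0.14 and none past the study's cutoff. *GA20OX1*, which encodes a rate-limiting oxidase, had 76.2, 96.8, 58.3 and 88.4 normalized reads in WL and 116, 98.9, 111 and 142 in FRtip (log2FC 0.55 ± 0.18), and the groups were separated by the gap between 96.8 and 98.9. *GA20OX2* had 1.1, 2.79, 0.641 and 3.76 in WL and 1.44, 3.07, 4.97 and 4.83 in FRtip and *GA20OX3* was at 0 in all 8, both under the filter. GA signalling genes had a median of 0.14 over 8, and 10 tested abscisic acid response genes had one of -0.05.

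Light quality genes mark cells that sense low R/FR themselves, and the abaxial petiole was not given FR. The summed level of the 8 genes was 239 to 255 normalized reads in the WL libraries and 280 to 353 in the FRtip libraries, so the groups did not overlap. *HAT4* was the most abundant of them. Of the 6 tested, 4 were higher and 2 lower (log2FC down to -0.24). The study's cutoff was passed by 1 of them, and by 0.931% of all tested genes in the upward direction. The median log2FC of the 6 was 0.35 at 60 min, 0.21 at 80 min, 0.40 at 100 min and 0.34 at 120 min. *PIL1*, a bHLH gene that low R/FR induces within minutes to hours, had 42, 53.6, 27.5 and 52.6 in WL and 62.5, 93.6, 79.5 and 66.7 in FRtip (log2FC 0.80 ± 0.22, limma adjusted p = 0.732). At 120 min its log2FC was 0.20 ± 0.15, and in the leaf tip at 100 min it was 9.60 ± 0.58 (limma adjusted p = 0.000112). By qRT-PCR in the petiole base the study reported *PIL1* as unaffected by FRtip. It also found light quality terms mostly missing among the genes higher in the petiole. *HAT4* and *HAT3*, HD-ZIP II genes of the shade response, had log2FC of 0.46 ± 0.15 and 0.34 ± 0.13. *HAT22*, of the same HD-ZIP class, had 35.3, 50.2, 47.4 and 51.7 in WL and 63.2, 59.8, 69.6 and 70.6 in FRtip (log2FC 0.51 ± 0.14), without overlap. The *PIF* genes themselves had log2FC between -0.15 and 0.04 over 5 members tested.

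Genes of the growth machinery showed no common direction at 100 min. The 10 tested alpha-expansins had a median log2FC of 0.13, the 16 tested xyloglucan endotransglucosylase/hydrolase (*XTH*) genes -0.13 with 11 of 16 lower, and the 8 tested proton pump genes 0.09 with 4 higher and 4 lower. None of these 34 genes passed the study's cutoff. Single members stood apart from the medians: log2FC reached 1.43 among *XTH* genes and 0.73 among proton pump genes. At an unadjusted limma p below 0.05, 1 *XTH* gene was higher and 1 lower, and 1 proton pump gene was higher. Over all tested genes 3.39% were higher and 2.7% lower at that p. At 120 min 2 *XTH* genes were higher and 0 lower by limma after adjustment. The 11 tested cytokinin genes had a median of -0.03. One of them, the type-A response regulator *ARR7*, which cytokinin induces, had 170.1, 201, 131 and 149 normalized reads in WL and 233, 234, 214 and 261 in FRtip (log2FC 0.54 ± 0.15), without overlap.

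**Figure D2:**
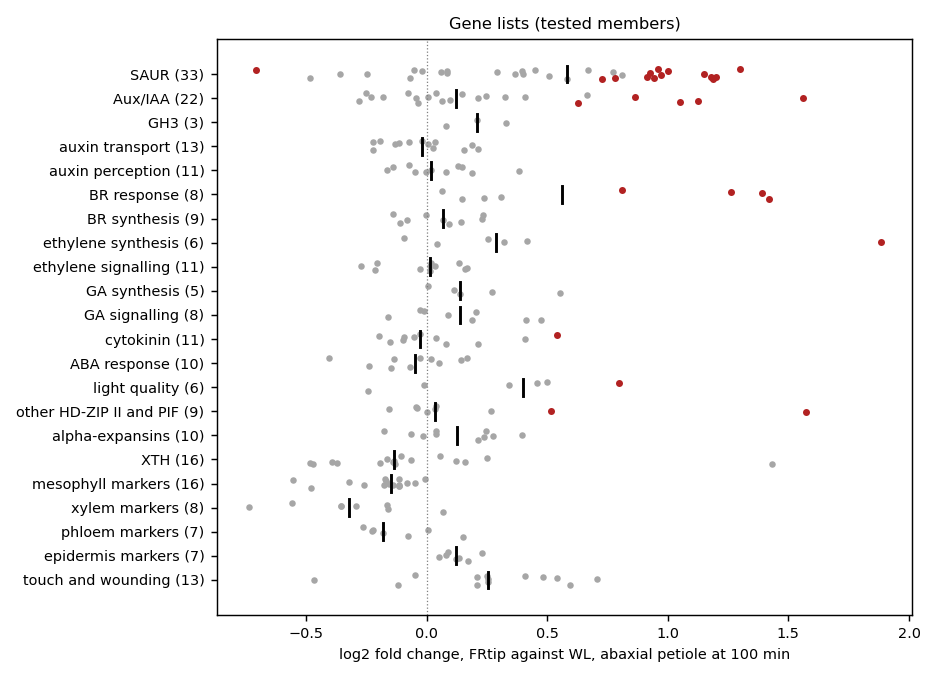
log2FC (FRtip against WL, abaxial petiole, 100 min; x axis) of each tested gene in 22 gene lists; a bar marks the median of each list, and red points passed an unadjusted p below 0.01 with a log2FC beyond 0.3 in size. SAUR genes (median 0.58) and brassinosteroid response genes (median 0.56) lie mostly to the right of 0, while auxin transport (median -0.02) and abscisic acid response (median -0.05) are centred near it.

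The 1 gene called lower under the pooled spread was *HB25*, a zinc finger homeodomain factor gene. It had 32, 17.4, 19.2 and 26.3 normalized reads in WL and 10.1, 14.6, 9.32 and 10.6 in FRtip, without overlap (log2FC -1.01 ± 0.20, limma adjusted p = 0.0190 with the pooled spread). It was -0.68 ± 0.14 at 80 min and -0.05 ± 0.18 at 120 min. The gene is low, with an FRtip mean of 11.1 ± 2.35.

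Some lists of cell type markers had small differences in mostly 1 direction. In bulk tissue, fewer cells of a type and less RNA per cell cannot be told apart. All 16 mesophyll genes were lower in FRtip, with a median log2FC of -0.15, but their summed level was 49264 to 63519 normalized reads in WL and 45776 to 62130 in FRtip and overlapped. *RBCS1B*, a Rubisco small subunit gene, had the largest difference among them at -0.55 ± 0.18. Of 8 tested xylem markers 7 were lower (median -0.32, sums of 378 to 756 in WL and 339 to 611 in FRtip), and of 7 phloem markers 5 were lower (median -0.18, sums of 868 to 1180 and 580 to 1056). All 7 tested epidermis markers were higher (median 0.12, sums of 1908 to 2785 in WL and 1738 to 3287 in FRtip). Of 13 tested touch and wounding genes 10 were higher (median 0.25, sums of 938 to 1423 and 827 to 1994), led by *TCH3*, a touch-induced calmodulin-like gene, at 0.71 ± 0.24. The 8 tested adaxial markers had a median of -0.10 and the 9 abaxial markers one of 0.05. *HIC* of the guard cell list and *ELF4* of the clock list were at 0 in all 8 libraries, while 3 guard cell and 12 clock genes were tested. None of these genes passed limma after adjustment, and the part of tissue composition or handling in the auxin-responsive differences was not tested.

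The neighboring time points, sampled from other plants, place these differences in the time series. At 80 min limma called 0 genes (548, or 3.49%, at an unadjusted p below 0.05) and edgeR 0 (461). At 120 min limma called 110 genes higher (0.701% of those tested) and 4 lower (0.0255%), and edgeR 180 higher (1.15%) and 5 lower (0.0319%), 185 or 1.18% in all. Leaving out the libraries of replicate 1, 2, 3 or 4 from both groups lowered the limma count from 114 to 54, 52, 54 and 70. With the pooled spread the counts ran from 0 at 60 min and 0 at 80 min to 28 higher and 1 lower at 100 min, 197 and 41 at 120 min, and 569 and 956 at 300 min. The time points differ in their plants but the pooled spread is shared among them.

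Of the 28 genes called higher at 100 min, 28 of 28 were higher at 120 min, with a median log2FC of 1.74, and 24 of them (85.7%, against 0.701% of all tested genes) rose there by limma after adjustment. At 80 min 24 of 28 had a positive log2FC with a median of 0.17, and 0 passed. The median at 100 min was 1.14. *SAUR22* had a mean of 44.2 ± 9.00 normalized reads in WL and 185 ± 21.6 in FRtip at 120 min (log2FC 2.05 ± 0.16, limma adjusted p = 0.000553). *HAT2* had 49.9 ± 9.46 in WL and 331 ± 40.2 in FRtip (log2FC 2.72), *IAA5* reached a log2FC of 3.45 and *ACS4* one of 3.23. Those that did not pass at 120 min were *AT2G24600*, an ankyrin repeat gene, at 0.74, *AT5G46510* at 0.53, *AT5G25440* at 0.84 and *ATAF1*, a NAC factor gene of stress responses, at 0.06. At 100 min *ATAF1* had 6.63, 9.06, 10.9 and 4.70 in WL and 16.5, 17.6, 26.7 and 14.5 in FRtip, and the difference between its effects at 120 and 100 min was -1.13 ± 0.33 (limma adjusted p = 0.751).

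Differences between time points were also tested directly. No gene passed for the effect at 100 min minus that at 80 min by limma or edgeR (700, or 4.46%, and 701 genes at an unadjusted p below 0.05), or for 120 min minus 100 min (749, or 4.78%, and 730). Among the 29 genes the 100 minus 80 min difference had an unadjusted p below 0.05 in 23, all positive, with a lowest adjusted p of 0.998. The 120 minus 100 min difference had one in 18, of which 17 were positive, with a lowest adjusted p of 0.601. These 2 differences share the 100 min libraries, and both use the 100 min value that chose the 29 genes, so both counts are descriptions. For *HAT2* the effect was 1.14 ± 0.29 larger at 120 than at 100 min on the log2 scale and for *IAA5* 1.89 ± 0.46 (limma adjusted p = 0.629 and 0.601).

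Over the whole series of the abaxial petiole, *SAUR22* had log2FC of -0.25 at 60 min, 0.17 at 80 min, 1.3 at 100 min, 2.05 at 120 min, 1.26 at 140 min, 1.93 at 160 min, 1.29 at 180 min and 0.25 at 300 min (SE 0.19 each in the pooled fit). *HAT2* ran from 0.34 and 0.40 at 60 and 80 min through 1.57 at 100 min and 2.72 at 120 min to 2.99 at 160 min and 0.28 at 300 min (SE 0.25). *AT5G43190* was at 0.01 and 0.17 at 60 and 80 min, 1.38 at 100 min and 2.47 at 120 min, and was still at 1.09 at 300 min (SE 0.22). The 100 min value was thus below the 120 min value and above the 80 min value in all 3.

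**Figure D3:**
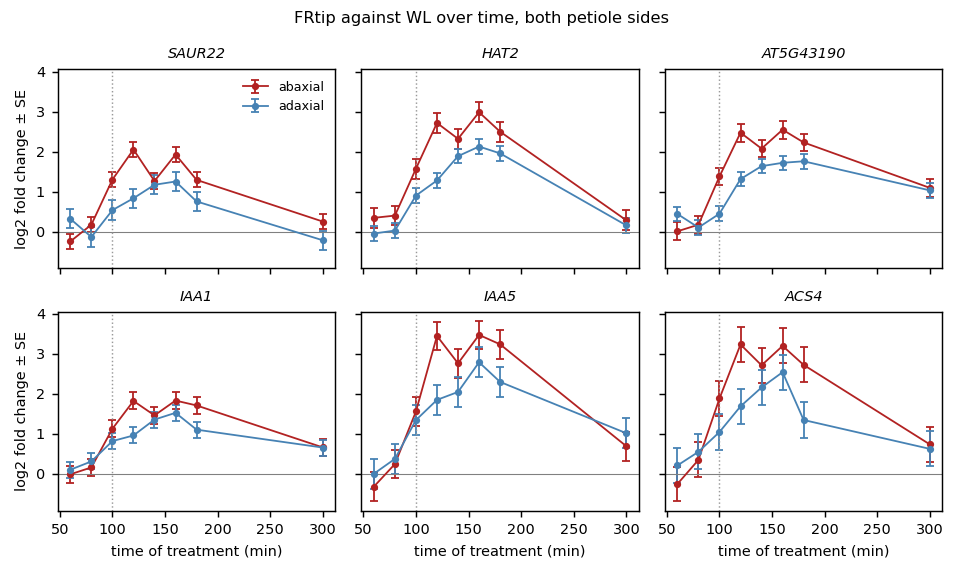
FRtip effect (log2FC ± SE of the pooled fit, y axis) against treatment time in min (x axis) for 6 genes, in the abaxial (red) and adaxial (blue) petiole. All 6 abaxial curves leave the range of 60 and 80 min at 100 min, as for ACS4 from 0.35 to 1.88, and stand higher at 120 min (ACS4 3.23).

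Petioles were split into an abaxial and an adaxial side at harvest, so samples of both sides may share leaves, while the test between the sides took them as independent. The adaxial side of the petiole at 100 min gave 0 genes by limma (619, or 3.95%, at an unadjusted p below 0.05) and 0 by edgeR (506). With the spread pooled over the adaxial time points, 2 genes were called higher and 1 lower on that side. The matching abaxial fit called 28 and 1. The 28 genes were higher in 27 there, with a median log2FC of 0.46 against 1.14 abaxially, and 15 of 28 had an unadjusted p below 0.05. Means of *HAT2* were 42.4 ± 12.7 in WL and 77.3 ± 11.9 in FRtip (log2FC 0.90 ± 0.23), of *SAUR22* 25.9 ± 8.93 and 37.3 ± 10.2 (log2FC 0.54 ± 0.27), and of *AT5G43190* 82.6 ± 9.32 and 113 ± 8.68 (log2FC 0.45 ± 0.13). The test of the difference between sides called 0 genes by limma (455, or 2.9%, at an unadjusted p below 0.05) and 0 by edgeR (396). Of the 29 genes, 8 had an unadjusted p below 0.05 for it, 7 of them with a larger abaxial log2FC, with a lowest adjusted p of 1.00. The abaxial effect of *AT5G43190* exceeded the adaxial one by 0.93 ± 0.23, that of *SAUR22* by 0.76 ± 0.34 and that of *IAA5* by 0.22 ± 0.71. Since the 29 genes were chosen on the abaxial value, the larger abaxial size is a description.

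The 207 genes past the study's cutoff were also followed in the other samples. Of the 146 higher genes 122 (83.6%) were also higher at 120 min, 39 (26.7%, against 0.701% of all tested genes) passed limma there, and 117 (80.1%) were higher in the adaxial petiole. At 80 min 91 (62.3%) were higher and 0 passed. Of the 61 lower genes 39 (63.9%) were lower at 120 min with 0 passing, 47 (77.0%) were lower in the adaxial petiole and 30 were lower at 80 min. Over all tested genes the share with a positive log2FC was 49.6% at 120 min, 49.8% at 80 min and 49.6% in the adaxial petiole. The median log2FC of the 146 genes was 0.64 at 100 min and 0.33 at 120 min, and that of the 61 genes was -0.49 and -0.06. The split of the cutoff depended on FRtip replicate 1: without it 107 genes were higher and 113 lower. All 146 kept a positive and all 61 a negative log2FC without it, and 84 of the 146 still passed. These genes were chosen with that library included, so the kept directions are a description.

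**Figure D4:**
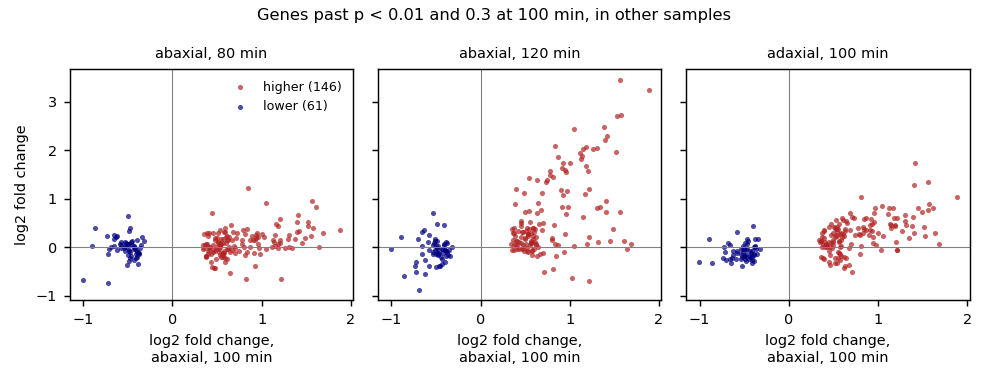
log2FC at 100 min in the abaxial petiole (x axis) of the 207 genes past the study's cutoff, against their log2FC at 80 min and 120 min in the abaxial petiole and at 100 min in the adaxial petiole (y axes). Of the 146 genes higher at 100 min, 122 lie above 0 at 120 min, 91 at 80 min and 117 in the adaxial petiole; the 61 lower genes sit close to 0 at 120 min (median -0.06).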

How the data were processed

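Poly-A RNA of abaxial petiole (13 leaves per library, 4 libraries each of WL and FRtip at 100 min) was made into strand-specific BrAD-seq libraries. The authors deposited DESeq2-normalized read counts per gene (a signal scaled per library) for TAIR10, and the submitters' processing notes name FastQC, STAR, Picard, HTSeq and DESeq. How strand and multiply mapped reads were counted is not given in the sources used here. Dividing by the smallest step of each column returned whole reads for 100% of values (tolerance 1e-06 reads), which gave depth and the input of count tests.

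The test was limma 3.58.1 (R 4.3.3) on log2(normalized count + 1) of the 8 libraries, two-sided, for genes with a mean of at least 10, with Benjamini-Hochberg adjustment over all of them and a threshold of 0.05. Alternatives were edgeR 4.0.16 (quasi-likelihood, TMM), DESeq2 1.42.0, limma with a trend, 1 fit over the abaxial libraries of 60 to 300 min, the study's cutoff (p below 0.01, log2FC beyond 0.3), other filters and pseudocounts (0.5 and 5), a replicate block, and leaving out each library. Scripts were tested on simulated data. The study calls the 4 libraries of a group biological replicates; whether they came from separate growth batches is not given in the sources used here, so p-values measure only the spread between these pools.

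The naming rule took genes called by limma with non-overlapping groups (there were none), members of the gene lists, and genes the study names for its sequencing. Genes called by the other fits were added after their values were seen. The samples and lists were chosen with earlier results of these data known. Promoters and positions came from the RefSeq annotation of TAIR10.1; 32835 of 33602 loci matched it. Columns of the adaxial petiole and leaf tip served only for comparison.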

Additional observations from a re-analysis of the deposited data

Results flagged for a closer look

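In a group of 4 libraries a single value was called far from the rest when its gap to the nearest other value exceeded 0.829 of the group's range. Over 50 genes and 100 groups this happened 11 times, and chance gives about 1 in 20 independent groups. All these genes were read in the same libraries, and many were chosen on them. The groups are thus not independent, and the 11 cannot be set against that rate. FRtip replicate 1 gave 7 of the 11, each time as the highest library. It had 245 normalized reads of *HAT2* (the next was 131), 209 of *SAUR24* (111), 57.5 of *IAA5* (23), 59.6 of *SAUR28* (39.8), 120.0 of *SAUR64* (75.1), 253 of *SAUR14* (185) and 128 of *AT5G46510* (113). The other 3 FRtip libraries of *HAT2*, *SAUR24* and *IAA5* still lay above all WL libraries. In WL the far values were 5.52 of *IAA5* in replicate 1 (the next was 9.61), 89.9 of *IAA6* in replicate 2 (106), 133 of *SAUR14* in replicate 3 (154), all as the lowest library, and 30.8 of *DRT101* in replicate 3 (17.7), as the highest.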

How the results depend on the processing

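Of the count of 0 genes by limma at 100 min, edgeR made 3, limma with a trend 3, DESeq2 34, 1 fit over the abaxial time points 29, the study's cutoff 207 and edgeR with a replicate block 54; leaving out 1 library gave 0 to 1 (*AT3G11402*, without WL replicate 2). A pseudocount of 0.5 or of 5, a lower filter (a mean of 1), no filter, centring on the median (a shift of the median log2FC by under 0.1) and an unmoderated model also gave 0. The 207 genes of the cutoff became 131 without moderated spread and 337 with the pooled spread, and 127 (without WL replicate 3) to 330 (without FRtip replicate 2) with 1 library left out. The 29 genes of the pooled spread became 3 with time points 60 to 120 min and 3 (without FRtip replicate 1) to 63 (without FRtip replicate 2) with 1 library left out. At 120 min the 114 genes became 185 by edgeR and 52 to 70 with 1 replicate number left out of both groups. The lower filter gave 1 gene in the adaxial petiole and 3 for the effect at 120 min minus that at 100 min, and leaving out 1 replicate number left 0 to 0 genes at 80 min, in the adaxial petiole and for the 3 differences. Over 50 named genes 950 alternative values were computed: 892 had the same direction and were not called, 58 were called and 0 reversed. The fit with the pooled spread is 1 of these alternatives, and 29 of the genes were named because it called them. Its 29 calls among the 58 were thus fixed in advance. Several alternatives, such as other filters or another estimate of the spread, leave the log2FC as it is. Many of the genes were also chosen on these libraries, so a reversal was unlikely from the start. Of 589 list medians 579 moved by less than the spread and 10 by more. The cause of these changes was not tested.

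Replicate numbers were not taken as pairs. Same-numbered libraries share a letter in their sample descriptions, but no label names a batch, and not every same-numbered pair correlated. Deviations of WL and FRtip libraries correlated at 0.31, 0.36, -0.05 and 0.19 for replicates 1 to 4. The libraries of replicates 1, 2 and 4 each correlated best with their own number and those of replicate 3 did not, so a shared origin of same-numbered libraries was not settled. With the replicate block limma called 0 genes at 100 min, 92 with the pooled spread (29 without the block) and 176 at 120 min (114 without). The edgeR test at 100 min called 54 genes with the block and 3 without it.

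Depth limits the low genes. With 1871274 to 3195925 reads per library, *IAA29*, *ACS8*, *NCED5* and *YUC3* had a few reads each and lay under the filter. Of the 146 higher genes 20 had a WL mean under 10. With 4 pools per group, no limma p at 100 min passed adjustment over 15681 genes.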

Other observations

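The following genes belong to none of the lists and were chosen after their values were seen, among those past the study's cutoff. Several were higher in FRtip at 100 min with a log2FC near 0 at 120 min. *PMT6*, a gene of the polyol/monosaccharide transporter family, had 4.42, 4.88, 7.69 and 4.70 normalized reads in WL and 29.4, 12.3, 18 and 18.4 in FRtip, without overlap (log2FC 1.64 ± 0.24), and a log2FC of -0.04 ± 0.30 at 120 min. *ASN1*, a glutamine-dependent asparagine synthetase gene known from dark and low-sugar conditions, had 5.52, 8.36, 1.28 and 11.3 in WL and 14.4, 35.3, 23 and 12.6 in FRtip (log2FC 1.68 ± 0.49, and 0.06 ± 0.29 at 120 min). *ATBFRUCT1*, a cell wall invertase gene, had 1.61 ± 0.38 at 100 min and 0.13 ± 0.26 at 120 min, and *HR4*, a gene of the RPW8 disease resistance family, 1.31 ± 0.29 and 0.12 ± 0.34. None passed the test of the difference between 120 and 100 min after adjustment (limma adjusted p = 0.601 for *PMT6* and 0.943 for *ASN1*).

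Other genes past the cutoff were higher at both time points and rose at 120 min by limma after adjustment. *AT1G67900* had 199.9, 341, 242 and 218 normalized reads in WL and 541, 389.5, 484 and 358 in FRtip (log2FC 0.83 ± 0.19) and a log2FC of 2.09 at 120 min. The small peptide genes *RTFL16* and *RTFL17*, of the ROTUNDIFOLIA-like family, had log2FC of 0.69 ± 0.15 and 0.74 ± 0.23 at 100 min and 1.11 and 1.38 at 120 min. Among the lower genes, *STOMAGEN*, which encodes a mesophyll peptide that promotes stomata, had 33.1, 34.8, 41 and 32 in WL and 20.1, 33.7, 19.9 and 21.3 in FRtip, with overlapping groups (log2FC -0.58 ± 0.18, and 0.25 ± 0.27 at 120 min).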
